A study of Mus musculus with 8 samples.

Results

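The actin cytoskeleton genes described here are 60 listed mouse genes for actin itself and for the proteins that store, nucleate, elongate, sever, cap, bundle and pull on actin filaments. They were found by matching the transcript identifier of each array probe to a RefSeq gene symbol, and all 60 had at least 1 probe, out of 20144 symbols with a probe on the array. All 60 were well above background on all 8 arrays and were tested among 21116 features (genes or unnamed transcripts, 1 probe each).

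RNA came from dissociated mouse hippocampal neurons that received a lentivirus on day 10 in culture and were kept for 6 more days. In 4 cultures the virus carried Flag-Nr4a1, an orphan nuclear receptor with an epitope tag, and in the other 4 it carried GFP, a fluorescent protein, so both groups were infected. The sources used here name neither the promoter that drove the transgenes nor the share of cells infected. Each array set the culture's RNA in Cy5 against Universal Mouse Reference, a commercial reference RNA, in Cy3, and no dyes were swapped. Pair tags in the labels join 1 array of each group into 4 pairs (replicates 1 to 4), and nothing says that replicates of a group were separate preparations, so p-values cover only the scatter among these particular samples, part of which could be technical.

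Actin exists as monomers and as filaments. Nucleators such as the Arp2/3 complex and the formins start filaments, capping proteins stop their ends, cofilins cut them, crosslinkers bundle them, and tropomyosins and non-muscle myosin II stabilise and contract them. In neurons these filaments fill the heads of dendritic spines, the small protrusions that carry most excitatory synapses, and drive growth cones and filopodia.

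Each level below is a log2 ratio of culture RNA over reference RNA, and each difference is Nr4a1-labelled minus GFP-labelled in log2 units, with its standard error (SE, n = 4 pairs) from limma's moderated test. A gene was called at an adjusted p (Benjamini-Hochberg over all 21116 features) under 0.05. Levels are ratios for 1 probe and are not compared between genes. In RNA from whole cultures, fewer cells of a type and less RNA per cell cannot be told apart.

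The label was checked first on the Nr4a1 probe. Replicates 1 to 4 of the GFP-labelled group read -2.06, -2.12, -1.90 and -2.49, and those of the Nr4a1-labelled group read -1.32, -2.49, -1.20 and -2.37. Nr4a1-labelled replicates 2 and 4 lay within the GFP-labelled range, and the difference of 0.30 ± 0.15 did not pass (adjusted p = 0.196). Nothing used here says whether the probe reads the delivered transcript, so groups are named by their labels. Neuronal markers were present: all 10 listed were tested, with a mean log2 ratio of 4.68 to 4.82 on GFP-labelled and 4.57 to 4.80 on Nr4a1-labelled arrays.

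Slides cannot be separated from groups by a fixed term, because the GFP-labelled arrays share 1 slide and the Nr4a1-labelled arrays lie on the other 2. With slide as a random block (consensus correlation 0.862), 12 of the 21116 features and 0 of the 60 actin genes were called. In that fit 5 actin genes had an unadjusted p under 0.05, and adjusted p of the 22 actin genes called below ran from 0.629 to 1. All 22 calls are lost in that fit. All 22 genes kept their direction in it, but it only weights the same arrays differently. The kept direction therefore cannot separate slide from group.

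Among the 60 genes, 22 were called (36.7%), 7 higher and 15 lower in the Nr4a1-labelled arrays, beside 24.4% of all tested features (12.8% higher and 11.5% lower). Their median difference was -0.03, beside -0.00 over all features, and 25 differences were positive and 35 negative. The largest fall was in Actn2 and the largest rise in Myl9. Most calls were small: 13 of the 22 were under 0.3 in size, and 5 (8.33%) reached 0.5, beside 4.84% of all features. In 21 genes (35%) the ranges of the groups did not overlap, beside 24.3% of all features. The 60 genes were brighter than most features: 48 lay above the median Cy5 intensity of all tested features and 11 in its top 5%. Whether brightness bears on the share called was not tested.

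The direction was shared between pairs in nearly all called genes. Of the 22, all had the sign of the fit in replicates 1, 2 and 4, and 21 had it in replicate 3, where Actb was the exception. These genes were called from a fit to the same 4 pairs, so the shared sign follows largely from the call. Of the 60 genes, 28 had the same sign in all 4 pairs, beside 8964 of all 21116 features. Replicate 4 is the whole of batch 2 and entered the fit too, so its 22 of 22 is not a separate check of that batch. Over the 60 genes the median pair difference was -0.02, -0.08, -0.07 and -0.01 in replicates 1 to 4. Without the pair block 17 of the genes were called (6 higher, 11 lower), beside 21.2% of all features. With median centring in place of loess the split was 10 higher and 6 lower. That centring moved all features by 0.06, and 73.3% of its calls over all features were higher, against 52.7% in the fit used here.

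**Figure D1:**
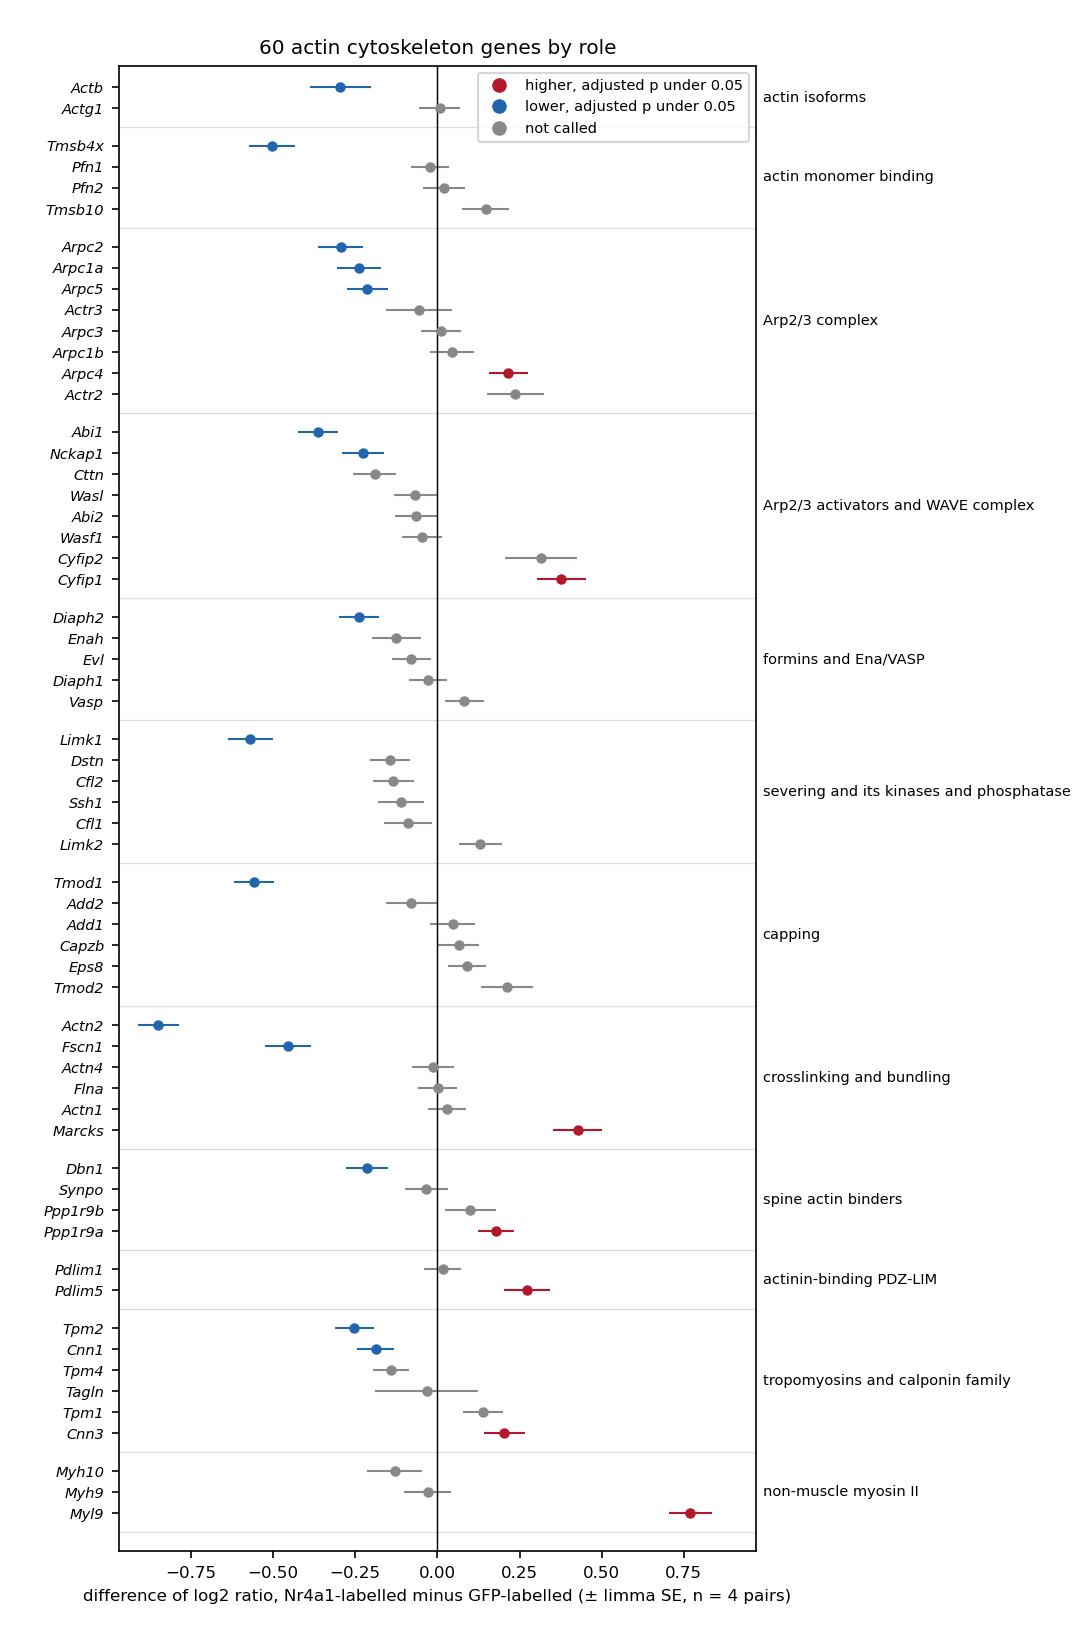
Difference in log2 ratio to reference RNA (x axis, Nr4a1-labelled minus GFP-labelled, ± limma SE, n = 4 pairs) for each of the 60 genes, grouped by role. Red and blue points mark the 7 genes called higher and the 15 called lower, and the ends of the range are Actn2 at -0.85 and Myl9 at 0.77.

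Promoters were read to see whether called genes shared a site, and 50 of the 60 genes had a RefSeq window of 250 bases before to 50 bases after the start (GRCm38.p6). These included 5 of the 7 genes called higher and 13 of the 15 called lower. Actb, Nckap1, Marcks, Cyfip1, Tagln, Eps8, Diaph1, Cttn, Abi2 and Synpo had no window, so their promoters were not searched. The NBRE (AAAGGTCA on either strand) is the site that an NR4A protein binds as a monomer. It was in 0 of the 50 genes with a window, beside 460 of all 27025 genes with a window (1.7%). The CArG box, the site of serum response factor, a known regulator of actin genes, was in 3 of the 50 (6%) and in 488 over all genes (1.81%). The 3 windows are shown because 2 of them belong to genes called higher, Myl9 and Arpc4, and 1 to Actg1, which was not called. Capitals mark the CArG box, and each stretch runs 5′ to 3′ on the gene's strand, at chr2:156775253-156775362 (plus strand, bases -211 to -102 from the start) for Myl9, chr6:113377863-113377922 (plus strand, -250 to -191) for Arpc4 and chr11:120348526-120348635 (minus strand, -140 to -31) for Actg1.
Myl9: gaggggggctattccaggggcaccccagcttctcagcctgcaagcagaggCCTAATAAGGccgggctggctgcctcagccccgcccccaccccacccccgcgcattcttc
Arpc4: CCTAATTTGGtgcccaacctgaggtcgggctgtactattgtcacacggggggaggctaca
Actg1: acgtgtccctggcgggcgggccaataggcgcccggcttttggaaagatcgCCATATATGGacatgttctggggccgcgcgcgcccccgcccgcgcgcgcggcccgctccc
A match is a string of letters and not a measured site, and its absence says only that the letters are not in the window.

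The actin isoforms came first. Actb, which codes for beta-actin, had log2 ratios of 1.00, 1.23, 0.81 and 0.61 in GFP-labelled cultures (replicates 1 to 4, an order kept throughout) and 0.45, 0.79, 0.88 and 0.36 in Nr4a1-labelled cultures. It was lower in 3 of 4 pairs, the groups overlapped, and the difference of -0.30 ± 0.09 was narrowly called (adjusted p = 0.0425). The call was lost without replicate 1, 2 or 4 (adjusted p = 0.188, 0.132 and 0.0982) and without the pair block (0.16).

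Actg1, which codes for gamma-actin, was read by 5 probes that disagreed. The probe with the highest Cy5 signal gave 2.15, 2.12, 2.11 and 1.90 in the GFP-labelled group and 2.14, 2.02, 2.09 and 2.06 in the Nr4a1-labelled group, a difference of 0.01 ± 0.06 (adjusted p = 0.948). A second probe gave 0.02 ± 0.06, whereas the other 3 gave -0.44 ± 0.08, -0.41 ± 0.09 and -0.46 ± 0.09, with p adjusted over all tested probes of 0.00461, 0.00914 and 0.00366. Those 3 probes read lower, the first 2 were not called, and the mean of the 5 was called lower (-0.26, adjusted p = 0.0165). Actb and Actg1 code for near-identical proteins. Whether a probe of 1 also reads the other was not examined, so the values of both are uncertain.

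Among the monomer-binding genes, only the thymosin Tmsb4x was called. It codes for thymosin beta 4, which holds monomers in reserve. Its log2 ratio was 2.99, 2.95, 2.95 and 3.20 in the GFP-labelled arrays and 2.42, 2.54, 2.59 and 2.52 in the Nr4a1-labelled arrays. The lowest GFP-labelled value was above the highest Nr4a1-labelled value, and the difference was -0.50 ± 0.07 (adjusted p = 0.000623), a GFP-labelled level 1.42 times the Nr4a1-labelled one. Its paralog Tmsb10 was not called (0.15 ± 0.07, adjusted p = 0.18). The profilins, which feed monomers to growing ends, were close to 0, at -0.02 for Pfn1 (95% interval -0.15 to 0.11) and 0.02 for Pfn2 (-0.12 to 0.16).

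The Arp2/3 complex, which starts a new filament as a branch on an old one, split by subunit, with 3 of its 8 genes called lower and 1 called higher. Arpc2, a core subunit, was 0.64, 0.73, 0.66 and 0.59 in the GFP-labelled arrays and 0.44, 0.27, 0.51 and 0.22 in the Nr4a1-labelled arrays, without overlap (difference -0.29 ± 0.07, adjusted p = 0.0117). Arpc1a, a propeller-shaped subunit, went from 0.95, 1.00, 0.85 and 1.01 to 0.60, 0.77, 0.81 and 0.68 (-0.24 ± 0.07, adjusted p = 0.0281). Arpc5, a peripheral subunit, went from 1.55, 1.53, 1.61 and 1.78 to 1.44, 1.28, 1.46 and 1.43 (-0.21 ± 0.06, adjusted p = 0.0338), and its other probe also gave -0.21. In these 3 genes every Nr4a1-labelled value lay under every GFP-labelled value.

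Arpc4, the core partner of Arpc2 and 1 of the 3 genes with a CArG box in a searched window, moved the opposite way. Its values were 0.47, 0.51, 0.52 and 0.63 in the GFP-labelled group and 0.72, 0.69, 0.82 and 0.76 in the Nr4a1-labelled group, also without overlap (0.22 ± 0.06, adjusted p = 0.025), and its second probe gave 0.21. The other 4 subunits were not called: Actr2, which sits at the base of the branch beside Actr3, was 0.24 ± 0.09 (adjusted p = 0.0764), and Actr3, Arpc1b and Arpc3 lay between -0.06 and 0.04. The chosen Arpc3 probe gave 0.01, whereas its other probes gave -0.16 ± 0.06 and -0.15 ± 0.06 (p adjusted over all probes 0.0841 and 0.11). Arpc1a and Arpc4 each lost the call without 3 of the 4 replicates in turn (adjusted p 0.0779 to 0.115 without replicate 1, 2 or 4, and 0.0769 to 0.0847 without replicate 1, 2 or 3). Arpc2 lost it without replicate 2 (0.0677) or 4 (0.0519), and Arpc5 without replicate 2, 3 or 4 (0.0512 to 0.128) and without the pair block (0.0515).

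The WAVE complex, which receives the signal of the GTPase Rac and switches on Arp2/3, also split by subunit. Abi1, an adaptor of the complex, was 1.00, 0.93, 1.11 and 1.03 in the GFP-labelled arrays and 0.59, 0.70, 0.65 and 0.68 in the Nr4a1-labelled arrays. The groups stood apart and the difference was -0.36 ± 0.06 (adjusted p = 0.00223). Nckap1, its scaffold, went from 2.72, 2.84, 2.80 and 2.74 to 2.59, 2.47, 2.51 and 2.63, a smaller shift of -0.23 ± 0.07 without overlap (adjusted p = 0.0301), which was lost without replicate 1 (0.052), 2 (0.162) or 3 (0.0867).

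Cyfip1, the subunit that binds Rac and also partners the translation regulator FMRP, rose. It was 0.98, 0.84, 1.07 and 0.94 in the GFP-labelled group and 1.51, 1.23, 1.19 and 1.4 in the Nr4a1-labelled group, without overlap (0.38 ± 0.07, adjusted p = 0.00518). Its paralog Cyfip2 gave 3.61, 3.68, 3.82 and 3.39 against 4.28, 3.81, 3.75 and 3.93, a difference of similar size but wider error (0.32 ± 0.11) that was not called (adjusted p = 0.0615). The remaining 4 activators were not called. Wasf1 (the WAVE protein itself), Wasl (N-WASP) and Abi2 lay between -0.07 and -0.05, and Cttn (cortactin, which stabilises branches) was -0.19 ± 0.07 (adjusted p = 0.0588), with a second probe at -0.38 ± 0.07 (p adjusted over all probes 0.00237).

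Of the 5 genes for linear elongation, 1 was called. Diaph2, a formin that adds monomers to a filament's growing end, was 0.29, 0.39, 0.28 and 0.04 in the GFP-labelled arrays and -0.04, 0.27, 0.06 and -0.24 in the Nr4a1-labelled arrays. The groups overlapped, but all 4 pairs fell, and the paired difference was -0.24 ± 0.06 (adjusted p = 0.0192). Without the pair block it was not called (0.134), nor without replicate 1 (0.08) or 4 (0.0667). Diaph1, the Ena/VASP genes Enah and Evl, and Vasp ranged from -0.12 to 0.08 and were not called, although a second Enah probe gave -0.29 ± 0.06 (p adjusted over all probes 0.00595).

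In the severing group 1 of 6 genes was called. Limk1 codes for a LIM kinase, which phosphorylates and inactivates cofilin. It was 1.88, 1.89, 1.84 and 1.68 in the GFP-labelled group and 1.22, 1.2, 1.27 and 1.31 in the Nr4a1-labelled group. Every pair difference was negative, from -0.69 to -0.37, and the difference was -0.57 ± 0.07 (adjusted p = 0.000274), a ratio of 1.48.

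Its paralog Limk2 was not called and pointed the other way (0.13 ± 0.06, 95% interval -0.01 to 0.28), although the difference between the paralogs was not tested. The cofilins and destrin, which cut filaments, and the phosphatase Ssh1, which reactivates cofilin, were not called, at -0.09 for Cfl1, -0.13 for Cfl2, -0.14 for Dstn and -0.11 for Ssh1, with SE of 0.06 to 0.07. Other probes of Cfl1 gave -0.18 and -0.32 (p adjusted over all probes 0.148 and 0.0335), and another of Cfl2 gave -0.23 (0.019). For these 2 genes the size, and whether the test was passed, therefore depend on the probe.

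Capping showed 1 call in 6 genes. Tmod1, a tropomodulin that caps the slow-growing end, had 0.91, 0.92, 0.84 and 0.93 in the GFP-labelled arrays and 0.32, 0.26, 0.38 and 0.41 in the Nr4a1-labelled arrays. The gap between the groups was wider than the spread within either, at -0.56 ± 0.06 (adjusted p = 0.000149), a ratio of 1.47. Its neuronal paralog Tmod2 was 5.63, 5.62, 5.96 and 5.72 against 6.12, 5.87, 6.03 and 5.76, positive in all 4 pairs but not called (0.21 ± 0.08, adjusted p = 0.0805).

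The fast-growing-end cappers Capzb and Eps8 and the adducins Add1 and Add2, which tie filaments to spectrin, lay between -0.08 and 0.09 and were not called. A Capzb probe for another transcript gave 0.25 ± 0.06 and a second Add1 probe -0.29 ± 0.07 (p adjusted over all probes 0.0126 and 0.0114).

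The crosslinkers held the largest fall. Actn2, an alpha-actinin known from muscle Z-discs and from postsynaptic sites in hippocampal spines, was 3.18, 3.02, 3.12 and 2.73 in the GFP-labelled arrays and 2.17, 2.19, 2.30 and 1.99 in the Nr4a1-labelled arrays. All 4 Nr4a1-labelled values were below all 4 GFP-labelled values. The difference was -0.85 ± 0.06 (adjusted p = 1.5e-05), a ratio of 1.8, and ranked 253 by size among all 21116 features. The broadly expressed paralogs Actn1 and Actn4 were 0.03 (95% interval -0.10 to 0.16) and -0.01 (-0.16 to 0.13), so neither interval reached the value of Actn2.

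Fscn1, which codes for fascin, the bundler of filopodia, was 0.59, 0.52, 0.43 and 0.21 in the GFP-labelled group and -0.07, 0.04, 0.17 and -0.21 in the Nr4a1-labelled group. The groups met closely at 0.21 and 0.17 without overlapping, and every pair fell (-0.45 ± 0.07, adjusted p = 0.00144). Marcks, a membrane-bound crosslinker that protein kinase C frees from the membrane, rose from 1.04, 0.91, 1.2 and 0.95 to 1.58, 1.33, 1.38 and 1.52 (0.43 ± 0.07, adjusted p = 0.00263). Flna, which codes for filamin A, was at 0.00 ± 0.06.

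**Figure D2:**
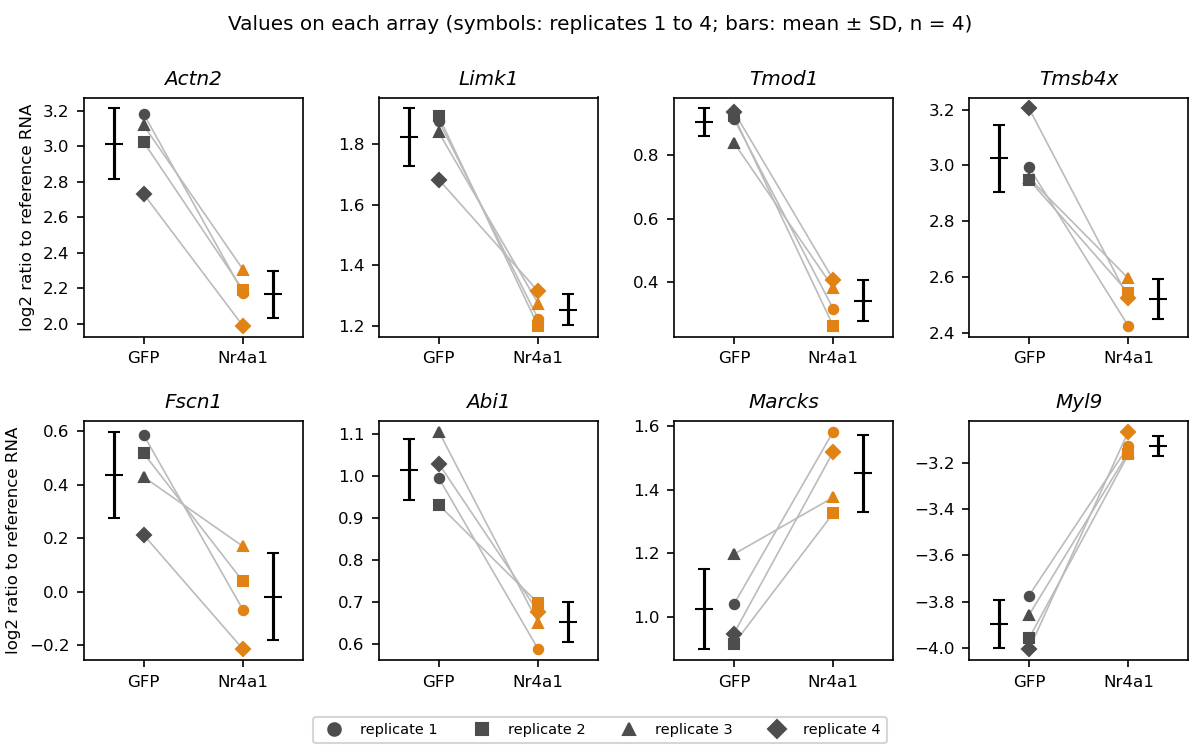
Log2 ratio to reference RNA (y axis, a separate range per panel) on each array for the 8 called genes that were also called in at least 16 of 18 alternative settings, with grey lines joining pairs and bars for mean ± SD (n = 4). In each panel the groups do not overlap and all 4 lines run the same way, down in Actn2, Limk1, Tmod1, Tmsb4x, Fscn1 and Abi1 and up in Marcks and Myl9. Among the settings, Aquantile and the mean of a gene's probes left these values as they were, because each gene has 1 probe and Aquantile does not alter ratios. Changes of the block to batch or none, or of the filter on dim probes, also kept these ratios and could alter only the test.

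Among 4 genes for spine actin binders, 1 was called lower and 1 higher, both by small amounts. Dbn1, which codes for drebrin, a side-binder of spine filaments, was 1.96, 1.98, 1.91 and 1.80 in the GFP-labelled arrays and 1.62, 1.73, 1.71 and 1.73 in the Nr4a1-labelled arrays, without overlap (-0.21 ± 0.06, adjusted p = 0.0352). Ppp1r9a, which codes for neurabin, a scaffold of protein phosphatase on actin, went from 5.15, 5.28, 5.32 and 5.04 to 5.34, 5.47, 5.45 and 5.23. The groups overlapped while each pair rose by 0.14 to 0.19, and the difference was 0.18 ± 0.06 (adjusted p = 0.0428). Its call was lost without any 1 replicate (0.068 to 0.162) and without the pair block (0.133), and its sign turned with spots of abnormal background kept (-0.49). The call of Dbn1 was lost without replicate 1 (0.137), 2 (0.127) or 3 (0.0688). Ppp1r9b (spinophilin) at 0.10 and Synpo (synaptopodin, of the spine apparatus) at -0.03 were not called.

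Of the 2 PDZ-LIM genes, whose proteins dock on alpha-actinin, Pdlim5 was called. It was 0.17, 0.19, 0.28 and 0.37 in the GFP-labelled group and 0.64, 0.51, 0.39 and 0.57 in the Nr4a1-labelled group, without overlap by a small gap (0.27 ± 0.07, adjusted p = 0.019). Its other probes gave larger rises of 0.44 ± 0.07 and 0.49 ± 0.07. The call was lost without replicate 1 (0.086) or 2 (0.0687). Pdlim1 was 0.02 ± 0.06.

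Tropomyosins and calponins, which lie along the sides of filaments, gave 2 calls lower and 1 higher in 6 genes. Tpm2 was -3.34, -3.41, -3.40 and -3.30 in the GFP-labelled arrays and -3.72, -3.61, -3.65 and -3.49 in the Nr4a1-labelled arrays (-0.25 ± 0.06, adjusted p = 0.0134). Cnn1, the calponin of smooth muscle, went from -2.46, -2.44, -2.39 and -2.28 to -2.59, -2.61, -2.64 and -2.48 (-0.19 ± 0.06, adjusted p = 0.0381). Cnn3, the calponin found in brain, went the other way, from -0.04, -0.09, 0.04 and -0.04 to 0.27, 0.18, 0.15 and 0.08 (0.20 ± 0.06, adjusted p = 0.0382). In none of the 3 did the groups overlap, but the shifts were small, and each call was lost when at least 1 replicate was left out. Tpm2 lost it without replicate 1 (0.0601), Cnn1 without any 1 replicate (0.064 to 0.124) and without the pair block (0.0539), with its sign turned (0.17) when spots of abnormal background were kept, and Cnn3 without replicate 1 (0.14), 2 (0.159) or 4 (0.0587).

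Tpm1 makes many transcripts, and its 5 probes disagreed by transcript. The 2 probes for NM_001164248 gave 0.14 ± 0.06 and 0.07 ± 0.06 and the probe for NM_001164251 gave 0.15 ± 0.07, none past the test. The probes for NM_001164249 and NM_001164255 gave -0.27 ± 0.06 and -0.31 ± 0.06 (p adjusted over all probes 0.0104 and 0.00426). Tpm1 thus had no single direction over its probes. Tpm4 was -0.14 ± 0.06, not called though lower in all 4 pairs, and Tagln (transgelin) varied most within a group, from -2.88 to -2.03 in the Nr4a1-labelled arrays, with a difference of -0.03 ± 0.16.

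**Figure D3:**
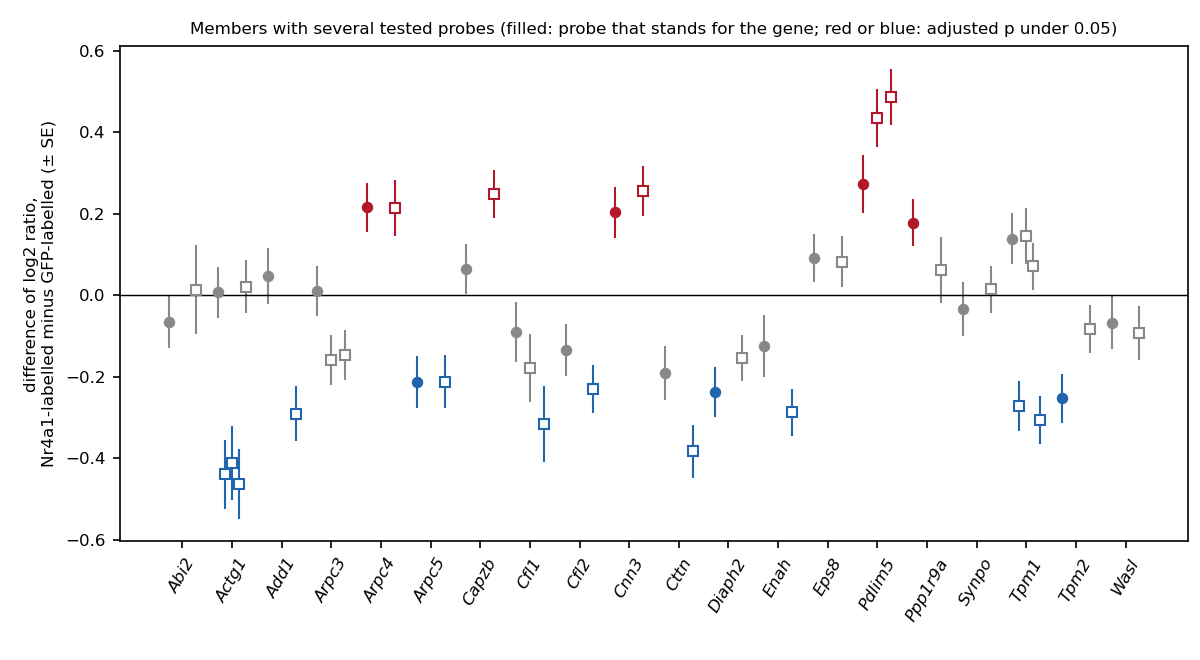
Difference in log2 ratio (y axis, ± limma SE, n = 4 pairs) for every tested probe of the 20 genes with several tested probes. Filled points are the probe that stands for the gene and open squares are its other probes, red and blue where p adjusted over all tested probes was under 0.05. Actg1, Add1 and Tpm1 each have probes near or above 0 and others at -0.27 or lower.

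Of the non-muscle myosin II genes, Myl9 held the largest rise among all 60 genes. It codes for a regulatory light chain, whose phosphorylation switches the motor on. Its values were -3.77, -3.96, -3.86 and -4.01 in the GFP-labelled group and -3.13, -3.16, -3.16 and -3.07 in the Nr4a1-labelled group. The groups stood well apart and all 4 pairs rose by 0.64 to 0.94, with a difference of 0.77 ± 0.07 (adjusted p = 3.42e-05), a ratio of 1.71. Of the heavy chains, Myh9 was -0.03 ± 0.07 and Myh10, which neurons express, was -0.13 ± 0.08, neither called. Of other smooth muscle genes, Acta2 at -0.07 and Tagln at -0.03 were not called, and Cnn1 was called lower, as given above.

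The 38 genes that were not called lay between -0.19 (Cttn) and 0.32 (Cyfip2). Of these, 7 had the same sign in all 4 pairs and 2, Eps8 and Tpm4, had groups that did not overlap. Over all 21116 features, called or not, 8964 had the same sign in all 4 pairs and 5129 (24.3%) did not overlap. For 14 of them the 95% interval lay within 0.2 of 0 on both sides, and for the other 24 the interval reached 0.2 or beyond on at least 1 side.

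Of the 21 genes with several probes, 20 had more than 1 tested. The 8 other probes of called genes all had the sign of the gene's chosen probe, and 6 of the 8 had an unadjusted p under 0.05. The other 2 were Ppp1r9a at 0.06 and Tpm2 at -0.08. Tmsb4x, Abi1, Limk1, Tmod1, Actn2, Fscn1, Marcks and Myl9 had 1 probe each, so their calls had no such check. Disagreement was in genes that were not called, as given above for Actg1, Add1, Arpc3 and Tpm1. In Cttn, Enah, Capzb, Cfl1 and Cfl2, also not called, another probe of the same sign had a p adjusted over all probes under 0.05.

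Related lists also held calls in both directions, to be read beside the 24.4% of all features called (12.8% higher, 11.5% lower). Of 68 tested other actin filament genes 5 were called higher and 15 lower (29.4%), led by Inf2, a formin, at -0.86 ± 0.06 (adjusted p = 1.19e-05), and by Ablim1, a filament-binding LIM protein, at -0.63 ± 0.08 (adjusted p = 0.000278). Of 17 myosin motor and light-chain genes 3 were higher and 2 lower (29.4%), among them Myo5a, the motor that carries cargo into spines, at 0.98 ± 0.08 (adjusted p = 3.66e-05), Myl12a, another regulatory light chain, at 0.39 ± 0.06, and Ppp1r12b, a targeting subunit of myosin phosphatase, at -0.38 ± 0.06.

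Of 17 genes of the serum response factor pathway 3 were higher and 1 lower (23.5%): the cofactor Mkl2 (now Mrtfb) at 0.34 ± 0.08, the target Ctgf (now Ccn2) at -0.33 ± 0.06 and the target Egr2 at 1.39 ± 0.35 had the smallest p. Mrtfb lost its call without the pair block (adjusted p = 0.0834) and without replicate 1 (0.067) or 4 (0.0636), and Egr2 without the pair block (0.153) and without replicate 1 (0.0769) or 3 (0.0625).

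**Figure D4:**
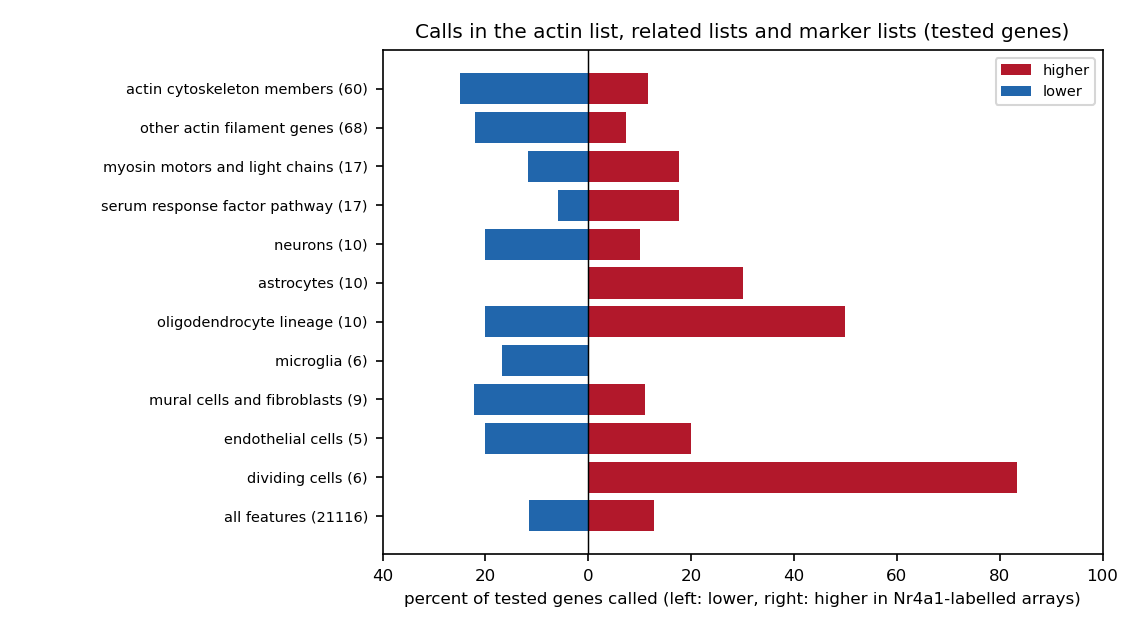
Percent of tested genes called (x axis, lower to the left and higher to the right) in the 60 actin genes, 3 related lists, the marker lists and all features, with the number tested in brackets. The actin genes have more calls to the left (15) than to the right (7), whereas all features have 2434 to the left and 2711 to the right.

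Some markers of other cells were also called, and their part in the results was not tested. The share called was 16.7% of microglial, 30% of neuronal, 30% of astrocyte, 33.3% of mural and fibroblast and 40% of endothelial markers. It was 70% in the oligodendrocyte lineage and 83.3% in dividing-cell markers, beside 24.4% of all features. Of 10 neuronal markers 1 was called higher and 2 lower (Nefm 0.30, Dlg4 -0.26 and Syt1 -0.25), and of 10 astrocyte markers 3 higher (Aqp4, Gja1 and Sox9), although Nefm and Aqp4 turned negative with Agilent's own ratio or with spots of abnormal background kept. Mean astrocyte log2 ratios were 3.48 to 3.60 on GFP-labelled and 3.59 to 3.75 on Nr4a1-labelled arrays. In the oligodendrocyte lineage 5 of 10 markers were called higher and 2 lower, with means of 0.90 to 1.06 against 1.18 to 1.22 (Pdgfra 0.76, Mbp -0.94). Of 6 tested dividing-cell markers 5 were higher (-4.30 to -4.05 against -3.87 to -3.70). Of 9 tested mural and fibroblast markers, which label cells known for Myl9, Cnn1, Tagln and Tpm2, 1 was higher and 2 lower (Lum -1.0, Dcn -0.59, Notch3 0.19), with means of -2.93 to -2.85 against -3.10 to -3.00. Of 6 tested microglial markers 1 was lower (Csf1r -0.75), with means of -1.83 to -1.73 against -1.99 to -1.86, and of 5 endothelial markers 1 was higher and 1 lower. The calls of Nefm, Dlg4, Syt1 and Notch3 were each lost without 1 or more of the replicates in turn (adjusted p 0.0539 to 0.164).

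The strength of the calls differed between genes over 18 other settings. Aquantile between arrays, which is among them, left the ratios as they were and so could change no call. Tmsb4x, Abi1, Limk1, Tmod1, Actn2, Fscn1, Marcks and Myl9 were called in all 16 settings other than the slide block and a background correction that kept spots of abnormal background. Each of these 8 genes had only 1 probe, so none was read by a second probe. Taking the mean of a gene's probes therefore left their values as they were. Changing the block to batch or none, or the filter on dim probes, also kept their differences and could alter only the test, so the 16 settings are not independent checks. Cyfip1 was called in 15 and Pdlim5 in 14. At the other end, 8 of the 22 were called in fewer than 10 settings, with Ppp1r9a in 5 and Actb in 6.

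**Figure D5:**
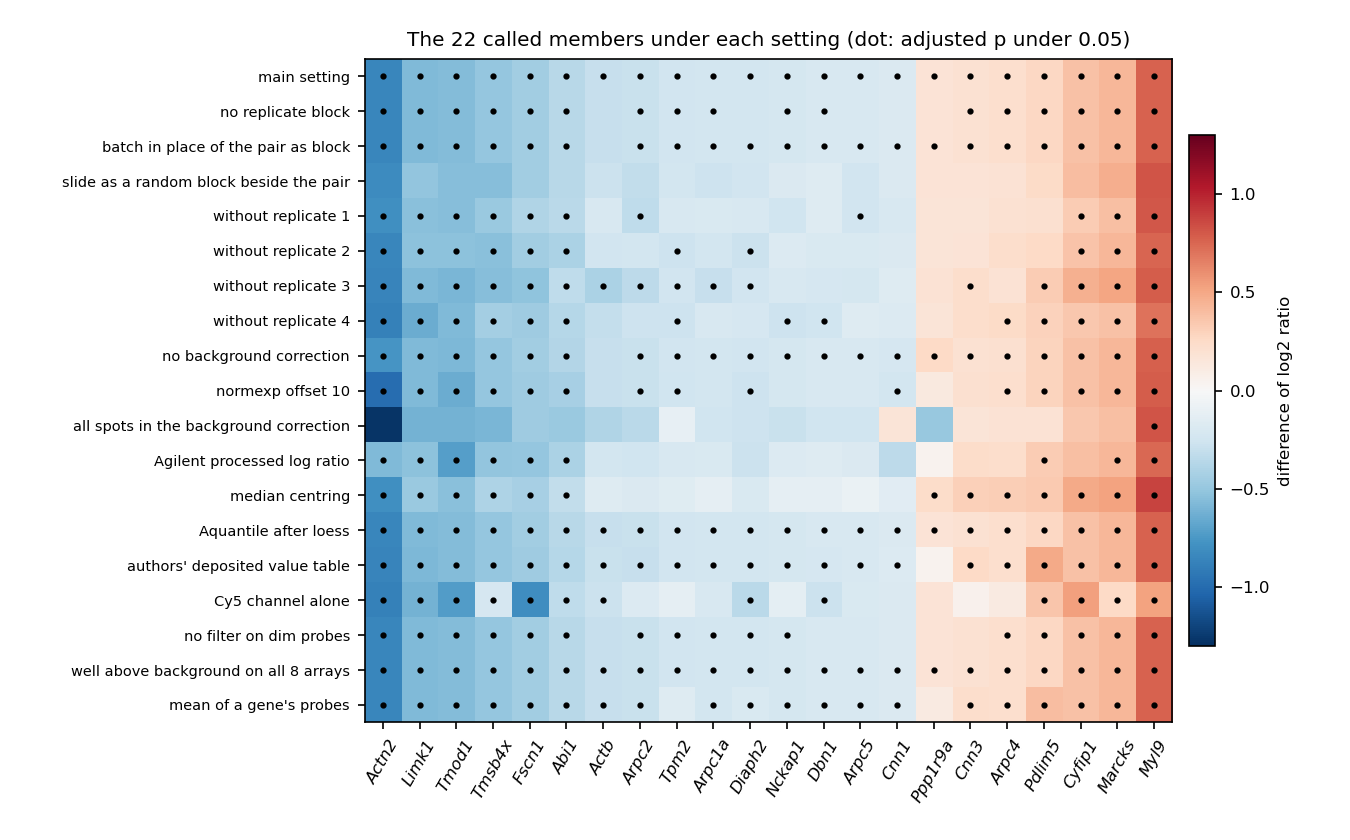
Difference in log2 ratio (colour) for the 22 called genes (columns, from the largest fall to the largest rise) under the setting used here and 18 others (lines), with a dot where the adjusted p was under 0.05. The 6 columns at the left and the 2 at the right keep their dots in all settings but the slide block and the correction with all spots, where Myl9 alone has one.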

How the data were processed

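Total RNA was measured on 8 arrays (4 per group), whose scanner files were made by Feature Extraction 11.0.1.1 from Agilent, according to their headers. These files, as deposited, give median signal and background intensity per spot and channel, and a log10 ratio of processed signals. The deposited value table (24275 probes) was taken as log2 ratios of culture RNA over reference RNA. The sources used here state neither its scale and centring nor its direction, but its columns correlated with the ratios computed here at 0.998 to 1.00, with medians of 0.0240 to 0.0312. Median Cy5 signals were 137 to 194 over Cy5 backgrounds of 29.5 to 30, with 60.9% to 69.2% of spots well above background and 0 saturated. Precision is limited by the number of arrays. The submitters' processing notes also name limma.

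Background was corrected with normexp (offset 50), which shrinks folds of dim probes. Spots with a background marked non-uniform were left out, a choice made after seeing the data: Nr4a1-labelled replicate 2 held 37, reaching 8509. Ratios were normalised by loess within arrays. Tests covered probes whose Cy5 signal was well above background on 4 or more arrays, with at least 3 values a group. RefSeq tables (GRCm38.p6) named 26581 of 39429 probes, and the probe of highest Cy5 intensity stood for a gene.

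Differences were tested with limma (version 3.58.1, under R 4.3.3), two-sided, over 21116 features, with the pair as a fixed block taken from the pair tag in the labels. As a check of the pairing, the arrays of a pair deviated from their group means with correlations of -0.10 (replicate 1), 0.28 (replicate 2), -0.016 (replicate 3) and 0.43 (replicate 4). For replicates 1 and 3 the GFP-labelled array correlated more with an Nr4a1-labelled array of another pair, so the values bear out the tags only for replicates 2 and 4. The 60 genes and the lists were chosen with earlier results of these data known. By the rule for named genes, values on every array were given for called genes and both actin isoforms, other genes of the 60 by range (Cyfip2 and Tmod2 were given in full after their values were seen), and at most the 3 genes of smallest p in each related list. Some genes and lists are not reported here. Where probes lie in the genome was not used here.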

Additional observations from a re-analysis of the deposited data

Results flagged for a closer look

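Of 120 groups of 4 arrays (60 genes in both groups), 4 held an array that stood far from the other 3, and chance alone marks about 1 in 20 groups. Arpc5 on Nr4a1-labelled replicate 2 was 1.28, below 1.43 to 1.46 on the others, and its call was lost without that replicate. Dbn1 on Nr4a1-labelled replicate 1 was 1.62, below 1.71 to 1.73, and its call was lost without that replicate too. Wasf1 on GFP-labelled replicate 4 was 4.65, below 4.99 to 5.03, and Limk2 on GFP-labelled replicate 3 was -0.5, above -0.74 to -0.73, both in genes that were not called.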

How the results depend on the processing

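Over 18 alternatives the 60 genes gave 1078 values. Of these, 919 kept their direction and side of the threshold, or changed sign without being called in either setting (59 of them). Another 131 lost a call, 22 gained one and 6 changed direction where 1 of the settings called them. Without the pair block 4475 features and 17 of the 60 genes (6 higher, 11 lower) were called. With slide as a random block the counts were 12 features (8 higher, 4 lower) and 0 genes higher or lower. With the spots of abnormal background kept they were 228 features (130 higher, 98 lower), 1 gene higher and 0 lower, with a median of -0.09 over the 60 genes. With Agilent's processed ratio they were 2861 (1511 and 1350), 3 and 6. With median centring 1262 features and 6 genes were lower, and the median over the genes was 0.06. Leaving out each replicate in turn gave 3384 to 4594 features (1768 to 2592 higher, 1616 to 2002 lower), 3 to 7 genes higher, 8 to 11 lower and medians of -0.05 to -0.02. The authors' deposited value table called 31 of 58 genes, beside 36.1% of its features.

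Directions changed in the authors' deposited value table for Actg1 (-0.43), Add1 (-0.3) and Tpm1 (-0.31), which there rest on another probe of the gene, and for Actg1 in the mean of probes (-0.26). With spots of abnormal background kept they changed for Ppp1r9a (-0.49), Cnn1 (0.17), Aqp4 (-0.21) and Nefm (-0.21), and with Agilent's ratio for Aqp4 (-0.1) and Nefm (-0.25). The cause of these last was not tested. Aquantile between arrays left the ratios as they were by construction. The number of arrays (4 pairs) limits the precision.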
